A study of Rattus norvegicus with 12 samples.

Results

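RNA of cultured astrocytes (ASTRs) of young adult female Wistar rats was measured by 3′ RNA sequencing in 12 libraries. The gmASTR group, 6 libraries, came from the cerebral cortex with the meninges removed, and the wmASTR group, 6 libraries, from the non-cortical rest of the brain without the amygdala, which is mainly white matter but holds deep grey matter as well. No treatment was given, and all cultures were kept for 20 days and passaged at least once with trypsin. The libraries stem from independent culture preparations, and grey and white matter cells were prepared from the same animals at the same time. Here the genes of DNA replication and mitosis were followed, with the question of whether genes of S phase and genes of G2 and M phase moved together in each culture. The list held 50 genes, 11 of S phase and 39 of G2/M. An Ensembl identifier could be paired with 46 of them out of the 17941 genes counted, namely 10 of the 11 S-phase genes (Tyms was not paired) and 36 of the 39 G2/M genes (Ccnb2, Mad2l1 and Hmgb2 were not paired). Of these, 45 passed the authors' filter on low counts, which left 9394 genes, and Racgap1 did not.

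The names of all members came from a list that was ordered by fold change and was held here only in the part that favours gmASTRs, where the smallest log2 fold change computed here is 0.44. Each paired member therefore had to have a higher mean in gmASTRs, and the direction of the members and the number that passed the test are given as a description only. What the pairing did not fix is how the members of the 2 phases compared within each library, how far the cultures of 1 group differed from each other, and what the promoters share. The same lower bound held for both phases, however, so the difference of the groups in their balance is not free of the pairing.

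In a cycling cell, the proteins of S phase copy the DNA. The MCM proteins form the ring-shaped helicase that opens the double helix, Pcna is the sliding clamp that holds the polymerases on the template, and ribonucleotide reductase and thymidine kinase supply the nucleotides. In G2 and M phase, Cdk1 with its cyclins starts mitosis, Aurora and Polo kinases and kinesin motors build the spindle, condensin and topoisomerase II fold the chromosomes, the kinetochore attaches them, and the anaphase-promoting complex ends mitosis by destroying cyclin B and securin. E2F factors act on many S-phase promoters, while the MuvB complex with B-Myb and FoxM1 acts on many G2/M promoters through an element called CHR, often beside CCAAT boxes bound by NF-Y. Astrocytes of the healthy adult brain rarely divide, but resume division in culture and after injury.

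Promoters of 39 of the 46 members, 8 of S phase and 31 of G2/M, were matched by symbol in the RefSeq set of build GRCr8, each spanning 250 bases before to 50 bases after the start of the gene (Kif2c, with 2 entries, was counted once). The letters searched, on both strands, were TTTGAA or TTCGAA for CHR, CCAAT for the NF-Y box, and TTTCCCGC, TTTCGCGC, TTTGCCGC or TTTGGCGC for E2F, and matches of the same or of different motifs may overlap. At least 1 E2F match was found in 5 of the 8 S-phase promoters (62.5%) and in 1 of the 31 G2/M promoters (3.23%), beside 2.14% of all 33469 promoters. The 5 were those of Mcm2, Mcm3, Mcm5, Mcm6 and Mcm7, which are all the MCM members with a promoter in the set, and the G2/M member was Cdk1. A CHR match was present in 22 of 31 G2/M promoters (71.0%) and 3 of 8 S-phase promoters (37.5%), beside 19.7% of all promoters, and CCAAT was present in 24 of 31 (77.4%) and 6 of 8 (75.0%), beside 37.5%. Both CHR and CCAAT matched in 19 of 31 G2/M promoters (61.3%), 2 of 8 S-phase promoters (25.0%) and 7.95% of all promoters. The 2 phases thus differed in the share with E2F letters and with CHR letters, but had CCAAT in similar shares. These shares were not tested, a match is not evidence that a factor binds, and the absence of these letters says nothing of the factor.

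The 250 bases before the start are shown for 5 members, in lower case with the matches in capitals. Those of Tk1 and Bub1b belong to the S-phase and the G2/M member with the largest fold change, and that of Mki67 to the proliferation marker Ki-67. Those of Mcm5 and Spc25 were added after the values were seen, as the S-phase promoter with an E2F match and the called G2/M promoter with both CHR and CCAAT that had the largest fold changes.
Tk1 (GRCr8 chr10:103544778-103545027, minus strand): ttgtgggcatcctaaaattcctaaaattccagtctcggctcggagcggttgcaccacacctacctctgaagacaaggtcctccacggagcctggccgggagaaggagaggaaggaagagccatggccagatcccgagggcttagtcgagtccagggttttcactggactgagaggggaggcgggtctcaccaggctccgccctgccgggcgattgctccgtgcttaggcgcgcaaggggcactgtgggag
Bub1b (GRCr8 chr3:126016817-126017066, plus strand): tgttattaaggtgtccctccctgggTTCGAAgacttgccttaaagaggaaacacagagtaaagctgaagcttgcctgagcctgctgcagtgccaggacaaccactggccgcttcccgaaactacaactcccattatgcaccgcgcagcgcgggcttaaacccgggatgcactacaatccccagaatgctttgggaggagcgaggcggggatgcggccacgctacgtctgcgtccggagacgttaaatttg
Mki67 (GRCr8 chr1:199952594-199952843, minus strand): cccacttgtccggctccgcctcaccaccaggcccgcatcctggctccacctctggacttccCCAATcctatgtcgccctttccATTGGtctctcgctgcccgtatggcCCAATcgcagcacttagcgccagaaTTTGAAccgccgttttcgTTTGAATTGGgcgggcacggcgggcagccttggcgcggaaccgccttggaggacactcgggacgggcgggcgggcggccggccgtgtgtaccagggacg
Mcm5 (GRCr8 chr19:13488563-13488812, plus strand): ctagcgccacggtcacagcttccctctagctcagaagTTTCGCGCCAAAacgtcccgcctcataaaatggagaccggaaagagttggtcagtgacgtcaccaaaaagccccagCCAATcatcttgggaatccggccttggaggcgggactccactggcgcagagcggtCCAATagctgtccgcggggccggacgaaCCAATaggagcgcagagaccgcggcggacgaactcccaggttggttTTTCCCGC
Spc25 (GRCr8 chr3:74396719-74396968, minus strand): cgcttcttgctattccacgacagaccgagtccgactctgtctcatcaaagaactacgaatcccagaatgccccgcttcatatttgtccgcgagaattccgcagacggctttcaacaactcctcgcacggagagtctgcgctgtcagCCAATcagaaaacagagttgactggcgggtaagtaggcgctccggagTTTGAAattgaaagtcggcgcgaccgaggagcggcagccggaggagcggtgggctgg
In Mcm5, 2 overlapping E2F matches lay at -213 to -206 and -209 to -202 and the third directly before the start, at -8 to -1, with 3 CCAAT boxes at -137, -82 and -54. In Spc25, CHR lay at -57 and CCAAT at -104, and another CCAAT match, at 17 after the start, is counted in the shares above but lies outside the stretch shown. In Mki67, 2 CHR matches lay at -117 and -99 among 4 CCAAT matches between -189 and -94, the last of which overlaps the second CHR match by 1 base. Neither Tk1 nor Bub1b had an E2F or CCAAT match in the stretch shown, and Bub1b had 1 CHR match in it, at -225. A second CHR match of Bub1b, which begins at -4 and runs past the start, is counted in the shares above but lies partly outside the stretch shown.

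The filtered table held 4896788 to 6325234 counts per gmASTR library and 5337270 to 7169999 per wmASTR library. A count of 3 corresponded to 0.418 to 0.613 on the CPM scale, in which counts are set relative to the library total, so that a listed 0 allows a level up to that value. The labelled cell type was checked against defining markers. Gja1, the main astrocyte connexin, was abundant in both groups (3680.1, 4932 and 5487 CPM in gmASTRs and 2226, 4467 and 5797 CPM in wmASTRs, lowest, median and highest), whereas Gfap was at 0 in all 6 gmASTR libraries and reached 10.6 CPM at most in wmASTRs, and Aqp4 was at 5.10 CPM or less in all 12. Slc1a3, the glutamate transporter GLAST, was at 2.72, 9.14 and 12.7 CPM in gmASTRs and 11.5, 21.3 and 35.7 CPM in wmASTRs and was called higher in wmASTRs (-1.43 ± 0.37 SE, FDR 0.0158). Of the 23 markers paired over 8 lists, 18 with names from lists in either direction, 3 were called higher in gmASTRs and 14 higher in wmASTRs, and 6 did not pass. The 5 others, Cldn11, Igf2, Foxc1, Aldh1a2 and Syt1, were named through the list held only for genes higher in gmASTRs. Their direction was thus fixed in advance, and all 3 calls higher in gmASTRs are among them. The summed CPM of the 5 microglial markers paired, out of 9 listed, ranged between 5.99 and 54.3 in gmASTRs, against 87.0 to 283 in wmASTRs. Only Ptgds of the 5 leptomeningeal fibroblast markers paired, out of 10, was free in direction. Their summed CPM ranged between 483 and 4558 in gmASTRs, against 263 to 524 in wmASTRs. Most of that range was Cldn11, at 112 to 3796 CPM in gmASTRs and 4.07 to 79.8 CPM in wmASTRs, and the list did not move in 1 direction. Cldn11 (FDR 6.40e-05) and Foxc1 (FDR 0.00751) were higher in gmASTRs, Ptgds was higher in wmASTRs (log2 fold change -3.22 ± 0.88 SE, FDR 0.0213, at 0 in 2 gmASTR libraries), and Igf2 (FDR 0.109) and Aldh1a2 (FDR 0.211) did not pass. The smooth muscle marker Myh11 (FDR 0.000152, at 26.6, 90.7 and 166 CPM in gmASTRs and 363, 466 and 734 CPM in wmASTRs), Cspg4 of oligodendrocyte progenitors (FDR 0.00577), the 3 oligodendrocyte markers and the neuronal Tubb3 (FDR 0.0126) were called higher in wmASTRs, and the neuronal Syt1 (FDR 0.00628) higher in gmASTRs. The groups thus differed in transcripts of other cell types as well, although only the markers named from lists in either direction were free to show it. The part of those cells in the values below was not tested. In bulk cultures, fewer dividing cells and less RNA of these genes per dividing cell cannot be told apart. On the first principal component over all genes, gmASTR replicate 5 lay between the other gmASTR and the wmASTR libraries, and the results that rest on it are given with and without it.

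In the comparison of gmASTRs with wmASTRs, 31 of the 46 members had an FDR under 0.05 (edgeR quasi-likelihood test, adjusted over all genes), 8 of the 10 S-phase members and 23 of the 36 G2/M members, all with higher levels in gmASTRs. Over the whole filtered table, 5.64% of the genes were called higher in gmASTRs and 6.69% higher in wmASTRs, and of the 1447 genes in it that the name list held, which all had to be higher, 31.6% were. At an FDR of 0.01, 5 S-phase and 15 G2/M members passed, beside 2.54% of the genes called higher in gmASTRs. The median log2 fold change was 0.81 for S-phase members and 1.01 for G2/M members, beside 0.02 for all 9394 genes and 0.68 for the 1447. The smallest log2 fold changes of members were those of Ncapg (0.48) and Smc4 (0.50). The count that passed differed with the level. Of the 19 members with a mean of at least 50 CPM, 17 passed, of the 15 between 20 and 50 CPM, 12 did, and of the 12 below 20 CPM, 2 did. The low members had a median log2 fold change of 1.19, above that of the abundant ones (0.92), but a median standard error of 0.44 against 0.18.

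**Figure D1:**
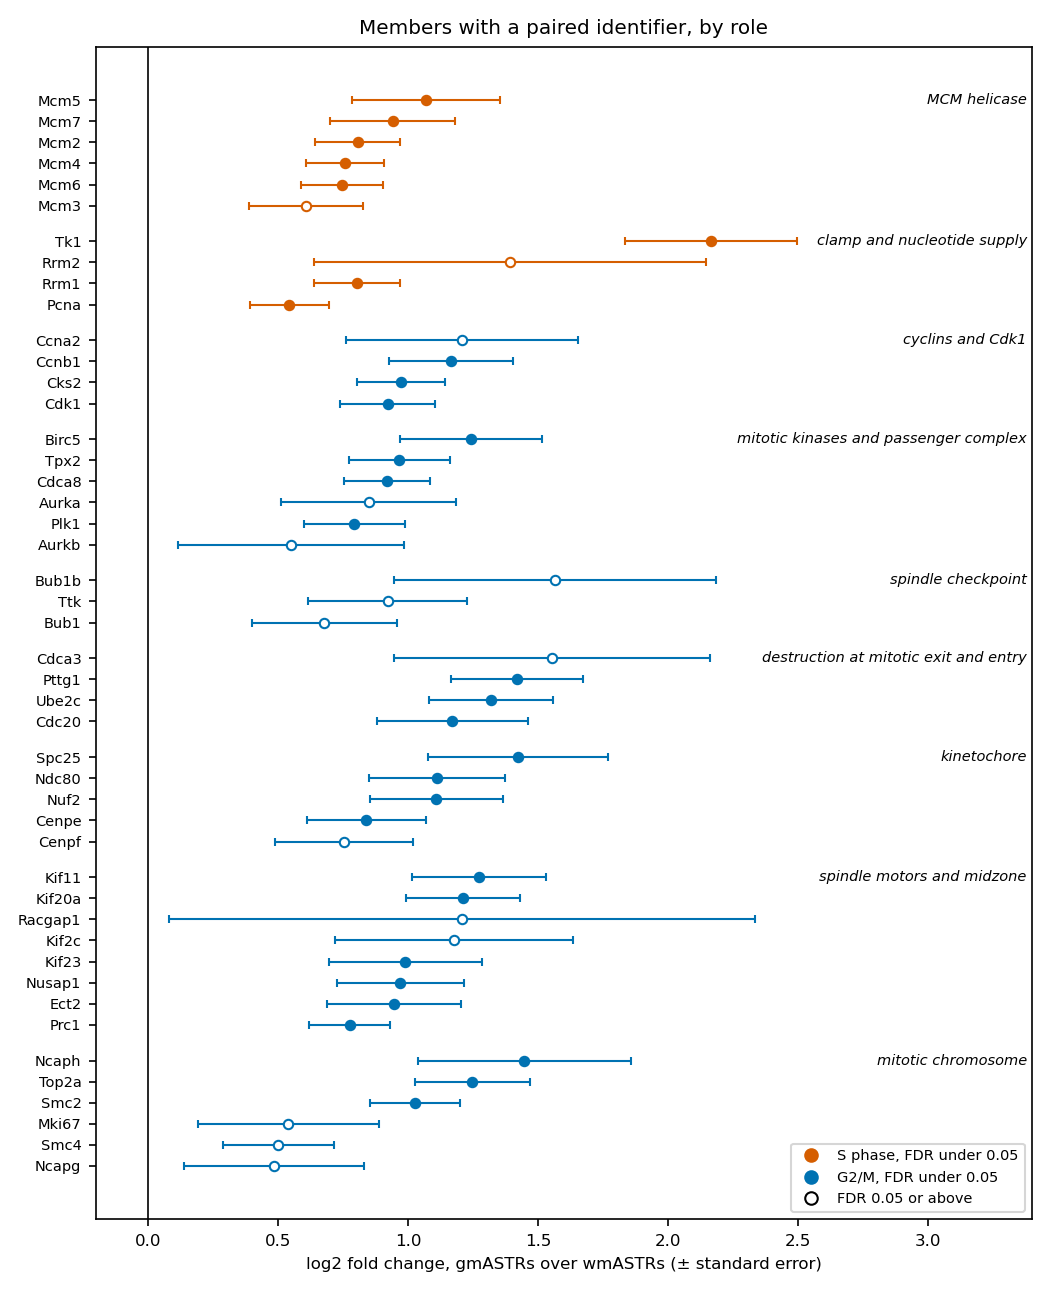
Log2 fold change of the 46 members (x axis, gmASTRs over wmASTRs, bars ± standard error) by role, with S-phase members in orange and G2/M members in blue; filled symbols have an FDR under 0.05. All lie above 0, which the pairing of names fixed, with Tk1 farthest at 2.16, and the open symbols with long bars are mostly members with few counts.

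Among the S-phase members, the MCM helicase subunits had fold changes of similar size, and 5 of the 6 passed the test. Mcm6 (ENSRNOG00000003703) was at 83.9, 131 and 151 CPM in gmASTRs and at 48.9, 76.0 and 86.9 CPM in wmASTRs (lowest, median and highest). Its log2 fold change was 0.75 ± 0.16 (SE), with an FDR of 0.00372. The groups overlapped in a single gmASTR library, replicate 5, which lay below the highest wmASTR library. Mcm5 (ENSRNOG00000014336) was at 15.8, 39.1 and 59.2 CPM in gmASTRs and 8.15, 17.7 and 21.8 CPM in wmASTRs, with a log2 fold change of 1.07 ± 0.28 (SE) and an FDR of 0.0175, which rose to 0.0588 without gmASTR replicate 6. Its 5 other gmASTR libraries lay above all wmASTR libraries, and replicate 5 lay within them. The 6 subunits, which form 1 ring in equal numbers, had log2 fold changes from 0.61 (Mcm3, FDR 0.0769, not called) to 1.07, and Mcm4 was the subunit whose groups did not overlap, by a margin of 81.8 CPM in the lowest gmASTR library to 81.7 CPM in the highest wmASTR library.

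The clamp and the enzymes of nucleotide supply held the member with the largest and the called member with the smallest fold change of the whole list. Tk1 (ENSRNOG00000047314), the thymidine kinase of the cytosol, was at 20.2, 39.9 and 61.2 CPM in gmASTRs and 3.15, 8.70 and 14.1 CPM in wmASTRs. All gmASTR libraries lay above all wmASTR libraries, and the difference was 4.48-fold (log2 fold change 2.16 ± 0.33 SE, FDR 0.000375). Rrm1 (ENSRNOG00000045752), the large subunit of ribonucleotide reductase, was at 115, 141 and 166 CPM in gmASTRs and 44.5, 86.2 and 102 CPM in wmASTRs, again without overlap, with a log2 fold change of 0.80 ± 0.17 (SE, FDR 0.00349). Rrm2, its small subunit, was close to the floor, between 0 and 9.05 CPM in gmASTRs and 0.334 and 2.62 CPM in wmASTRs, and its log2 fold change of 1.39 ± 0.75 (SE) did not pass the test (FDR 0.267). Pcna (ENSRNOG00000021264) was at 59.4, 85.7 and 108 CPM in gmASTRs and 43.7, 53.3 and 69.1 CPM in wmASTRs. The groups overlapped by 1 gmASTR library, replicate 1, and the log2 fold change of 0.54 ± 0.15 (SE) passed narrowly (FDR 0.0242), a call that was lost without gmASTR replicate 3, 4 or 6 or wmASTR replicate 3, 4 or 6 (FDR 0.0527 to 0.0663).

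Cdk1, its cyclins and the subunit Cks2 stand at the start of mitosis. Cdk1 (ENSRNOG00000000632) was at 71.1, 144 and 165 CPM in gmASTRs and 46.2, 64.5 and 86.5 CPM in wmASTRs, with a log2 fold change of 0.92 ± 0.18 (SE) and an FDR of 0.00238. Only gmASTR replicate 5, at 71.1 CPM, lay within the wmASTR range. Cyclin A2, Ccna2 (ENSRNOG00000015423), was at 3.04, 17.0 and 31.9 CPM in gmASTRs and 5.01, 6.00 and 11.8 CPM in wmASTRs. Here replicate 5 was the lowest of all 12 libraries, and the log2 fold change of 1.21 ± 0.45 (SE) did not pass (FDR 0.0845), but did without that library (FDR 0.0127). Cks2 was the member of this group whose libraries did not overlap, 46.8 to 83.9 CPM in gmASTRs against 26.3 to 42.6 CPM in wmASTRs (log2 fold change 0.97 ± 0.17 SE, FDR 0.000842), and Ccnb1, cyclin B1, rose as well (1.17 ± 0.24 SE, FDR 0.00328).

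Of the 6 mitotic kinases and subunits of the chromosomal passenger complex, 4 passed the test. Birc5 (ENSRNOG00000050819), survivin, was at 54.6, 119.8 and 208 CPM in gmASTRs and 28.9, 42.0 and 81.0 CPM in wmASTRs, and rose by a log2 fold change of 1.24 ± 0.27 (SE, FDR 0.00540). Cdca8 (ENSRNOG00000031431), borealin, which binds survivin in the same complex, was at 115, 247 and 273 CPM in gmASTRs and 93.3, 111 and 133 CPM in wmASTRs, with a log2 fold change of 0.92 ± 0.17 (SE, FDR 0.00121). For both genes, the 5 gmASTR libraries other than replicate 5 lay above all wmASTR libraries. The kinase of that complex, Aurkb, was low, at 3.30 to 23.7 CPM in gmASTRs and 3.75 to 12.9 CPM in wmASTRs, and its difference of 0.55 ± 0.44 (SE) did not pass (FDR 0.480). Aurka (0.85 ± 0.34 SE, FDR 0.112) did not pass either, although its activator Tpx2 did (0.97 ± 0.19 SE, FDR 0.00276), as did Plk1 (0.79 ± 0.19 SE, FDR 0.0105).

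None of the 3 members of the spindle checkpoint, which holds back anaphase until all chromosomes are attached, passed the test. Ttk (ENSRNOG00000029055), the kinase Mps1, was at 10.1, 26.8 and 41.1 CPM in gmASTRs and 7.01, 13.5 and 20.2 CPM in wmASTRs, with a log2 fold change of 0.92 ± 0.31 (SE, FDR 0.0558). Bub1b (ENSRNOG00000007906), BubR1, was at 2.09, 9.18 and 18.0 CPM in gmASTRs and 0.279, 3.17 and 5.68 CPM in wmASTRs, with the largest fold change of the G2/M members, 1.56 ± 0.62 (SE), but an FDR of 0.112. Both passed without gmASTR replicate 5 (FDR 0.00903 and 0.0482). Bub1 was at 14.5 to 21.0 CPM in gmASTRs against 6.18 to 15.6 CPM in wmASTRs (0.68 ± 0.28 SE, FDR 0.126), and was 1 of the 4 G2/M members in which replicate 5 was not the lowest gmASTR library.

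The genes of protein destruction around anaphase had the highest median log2 fold change of the 9 role groups, 1.37. Ube2c (ENSRNOG00000015131), the ubiquitin-conjugating enzyme of the anaphase-promoting complex, was at 127, 377 and 538 CPM in gmASTRs and 87.2, 145 and 180.3 CPM in wmASTRs, a log2 fold change of 1.32 ± 0.24 (SE, FDR 0.00119). Its gmASTR libraries apart from replicate 5 started at 319 CPM, well above the highest wmASTR library. Securin, Pttg1, which that complex destroys to release separase, rose by 1.42 ± 0.25 (SE) on the log2 scale (FDR 0.00111), and Cdc20, its activator, by 1.17 ± 0.29 (SE, FDR 0.0117). Cdca3 (ENSRNOG00000015529), which helps to degrade the mitotic inhibitor Wee1, was at 2.66, 12.5 and 19.1 CPM in gmASTRs and 0, 3.67 and 7.26 CPM in wmASTRs, with a log2 fold change of 1.55 ± 0.61 (SE) that did not pass (FDR 0.107, and 0.0440 without replicate 5).

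Of the 5 kinetochore members, 4 passed. Spc25 (ENSRNOG00000006731), a subunit of the NDC80 complex that grips microtubules, was at 15.4, 38.8 and 68.4 CPM in gmASTRs and 6.00, 14.9 and 23.5 CPM in wmASTRs, with a log2 fold change of 1.42 ± 0.35 (SE, FDR 0.0104). Its partners in that complex, Ndc80 and Nuf2, had nearly the same log2 fold change as each other, 1.11 ± 0.26 (SE) in both (FDR 0.00841 and 0.00750). Cenpf (ENSRNOG00000003388), a large protein of the outer kinetochore, was at 30.2, 70.9 and 147 CPM in gmASTRs and 27.6, 47.8 and 56.5 CPM in wmASTRs, and its log2 fold change of 0.75 ± 0.27 (SE) did not pass (FDR 0.0709). It reached its highest level in gmASTR replicate 6, and without replicate 5 its FDR was 0.00720.

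Of the 8 spindle motors and midzone proteins, 6 passed. Kif11 (ENSRNOG00000056069), the motor that pushes the spindle poles apart, was at 13.5, 36.8 and 41.0 CPM in gmASTRs and 8.81, 13.8 and 17.7 CPM in wmASTRs, with a log2 fold change of 1.27 ± 0.26 (SE, FDR 0.00299). Its 5 other gmASTR libraries lay close together, from 32.5 to 41.0 CPM, while replicate 5 was at 13.5 CPM, just below the wmASTR median. Kif20a (ENSRNOG00000024428), a motor of the central spindle, was at 78.0, 179.6 and 302 CPM in gmASTRs and 54.7, 76.8 and 106 CPM in wmASTRs, with a log2 fold change of 1.21 ± 0.22 (SE, FDR 0.00119). Again the groups overlapped through replicate 5. Racgap1, a partner of the motor Kif23 in the midzone, had few counts. In the fit over the larger table its log2 fold change was 1.21 ± 1.13 (SE, FDR 0.551), at 0 to 6.71 CPM in gmASTRs and at most 1.86 CPM in wmASTRs.

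The mitotic chromosome group held the members with the smallest fold changes of the list beside strongly raised ones. Top2a (ENSRNOG00000053047), topoisomerase II alpha, was at 103, 249.7 and 359 CPM in gmASTRs and 56.5, 102 and 126 CPM in wmASTRs, and rose by a log2 fold change of 1.25 ± 0.22 (SE, FDR 0.00106). Mki67 (ENSRNOG00000028137), the marker of proliferation, coats mitotic chromosomes. It was at 10.5, 25.1 and 32.1 CPM in gmASTRs and 4.31, 14.3 and 25.7 CPM in wmASTRs, and its log2 fold change of 0.54 ± 0.35 (SE) did not pass (FDR 0.366) here or under any alternative tried, where the FDR ranged from 0.186 to 0.586. The lowest 2 gmASTR libraries, replicates 5 and 1, lay below the wmASTR median, and wmASTR replicate 2 lay above the gmASTR median, so that this gene did not separate the cultures the way Top2a did. Of the condensin subunits, Smc2 was separated between the groups, 98.2 to 196 CPM in gmASTRs against 52.8 to 95.3 CPM in wmASTRs (1.03 ± 0.17 SE, FDR 0.000742), whereas its partner Smc4 (ENSRNOG00000010274) was at 145, 168 and 327 CPM in gmASTRs and 81.7, 138 and 204 CPM in wmASTRs (0.50 ± 0.21 SE, FDR 0.144). The highest levels of both lay in gmASTR replicate 4, not in replicate 6 as in 22 of the 36 G2/M members. Ncaph (ENSRNOG00000012051) was at 8.37, 14.0 and 27.6 CPM in gmASTRs and 2.04, 4.37 and 12.0 CPM in wmASTRs (1.45 ± 0.41 SE, FDR 0.0255), a call lost without gmASTR replicate 3 or 6 or wmASTR replicate 5 or 6 (FDR 0.0572 to 0.0839), and Ncapg did not pass (0.48 ± 0.35 SE, FDR 0.426).

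**Figure D2:**
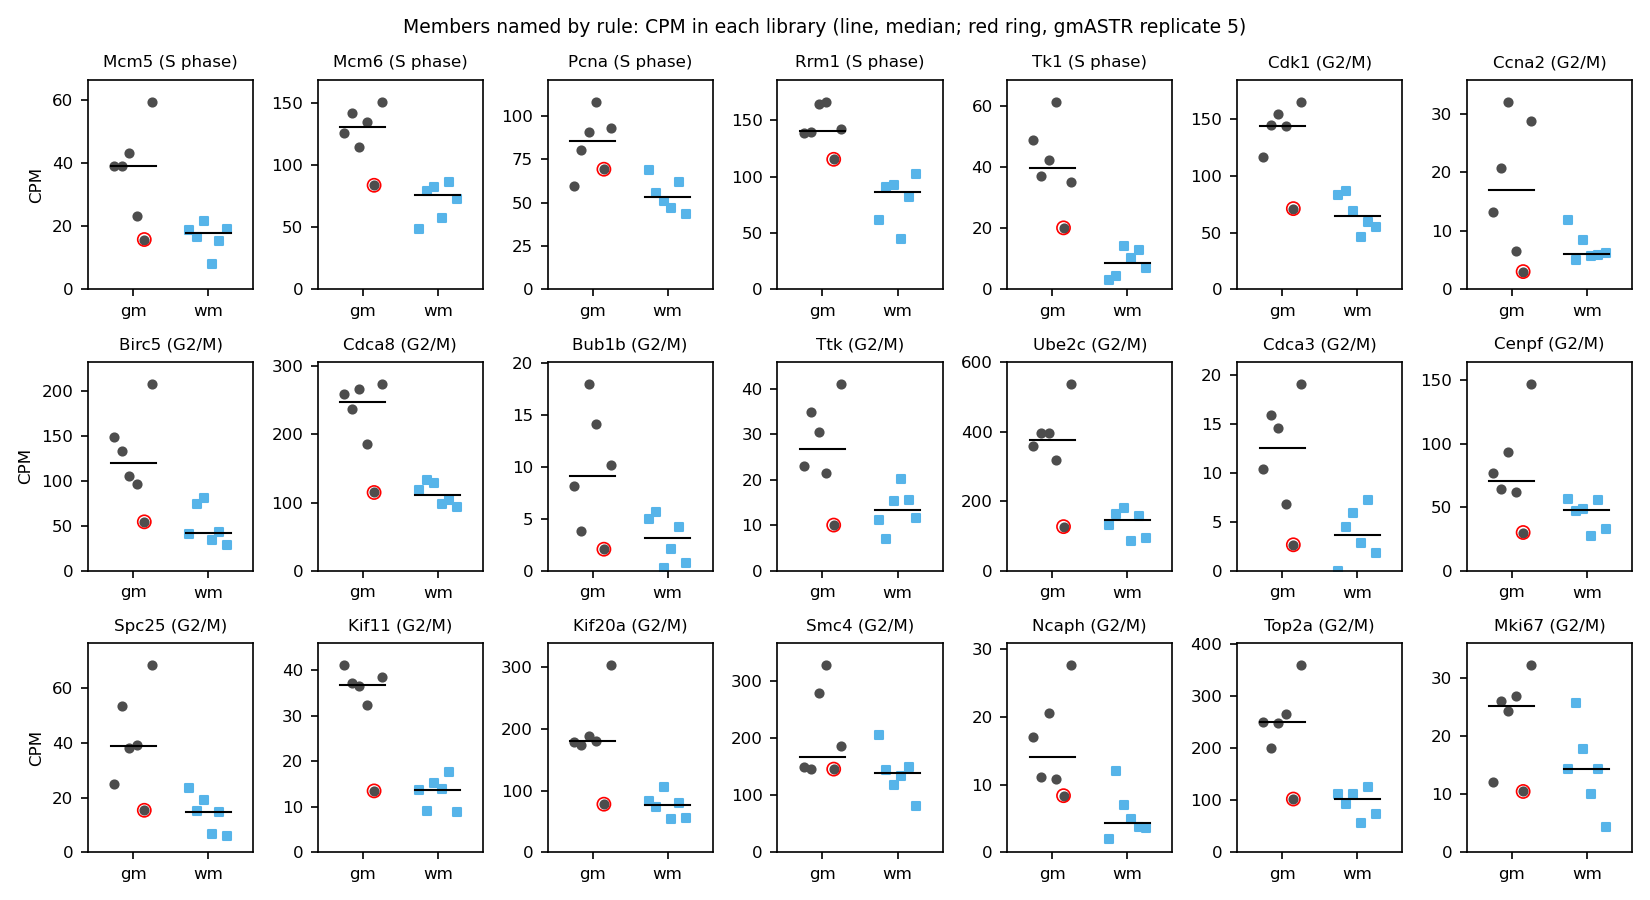
CPM (y axis, linear, its own scale in each panel) of the 21 members named by rule in the 6 gmASTR (grey circles) and 6 wmASTR libraries (blue squares), with group medians as lines. The red ring marks gmASTR replicate 5, which lies within or below the wmASTR values in every G2/M panel drawn, but above all of them for Rrm1, Tk1 and, narrowly, Pcna.

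For the comparison of the phases, CPM were summed over the 10 S-phase members and over the 35 G2/M members of the filtered table. The S-phase sum was 698, 745, 762, 822, 496 and 831 CPM in gmASTR replicates 1 to 6, and 369.5, 425, 468, 325, 414 and 370.0 CPM in wmASTR replicates 1 to 6. The G2/M sum was 2993, 2939, 3304, 2999.9, 1480.2 and 3990.3 CPM in gmASTRs and 1514, 1628, 1632, 1087, 1521 and 990.0 CPM in wmASTRs, in the same order. All gmASTR libraries lay above all wmASTR libraries in the S-phase sum, but not in the G2/M sum, where replicate 5 lay within the wmASTR range. The S-phase sum was 726 ± 123 CPM (SD, n = 6) in gmASTRs and 395 ± 50.5 CPM (SD, n = 6) in wmASTRs, a ratio of 1.84. The G2/M sum was 2951 ± 821 CPM (SD, n = 6) and 1395 ± 283 CPM (SD, n = 6), a ratio of 2.11. Without replicate 5, the gmASTR sums were 772 ± 55.8 CPM (SD, n = 5) and 3245 ± 440.4 CPM (SD, n = 5), and the ratios 1.95 and 2.33. These ratios are descriptions, since the pairing of names chose members that are higher in gmASTRs.

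The ratio of the S-phase to the G2/M sum tells whether the phases moved by the same factor. It was 0.233, 0.253, 0.231, 0.274, 0.335 and 0.208 in gmASTR replicates 1 to 6 and 0.244, 0.261, 0.287, 0.298, 0.272 and 0.374 in wmASTR replicates 1 to 6. The means were 0.256 ± 0.0447 (SD, n = 6) and 0.289 ± 0.0455 (SD, n = 6), and the ranges overlapped. On the log2 scale, gmASTRs were lower by a difference of -0.18, within the pooled SD of 0.23 between libraries, and it was -0.07 when the mean log2(CPM + 1) of the members replaced the sums. With all 12 libraries, the difference of the group means was thus smaller than the spread of single cultures, which is not the error of that difference. No test was run on it, and members of both phases had passed the same lower bound of the name list. Without gmASTR replicate 5 the difference was -0.26, larger than the pooled SD of 0.19 of the 11 libraries left, and without wmASTR replicate 6 it was -0.11, so that the size of the difference depends on single libraries in both groups. Without gmASTR replicate 5, the remaining gmASTR libraries (0.208 to 0.274) still overlapped the wmASTR libraries. Within each group, the library with the lowest G2/M sum had the highest ratio, gmASTR replicate 5 (0.335) and wmASTR replicate 6 (0.374), and in gmASTRs the library with the highest G2/M sum, replicate 6, had the lowest (0.208). The G2/M sum is the denominator of the ratio, so this is a description of the spread only.

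**Figure D3:**
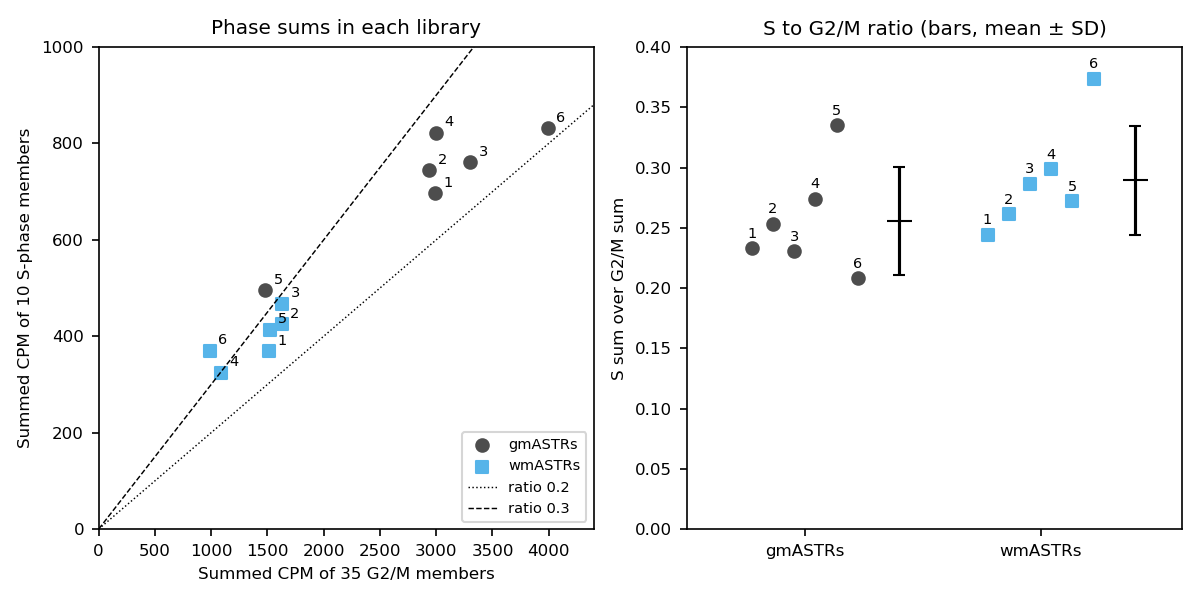
Left, summed CPM of the 10 S-phase members (y axis) against that of the 35 G2/M members (x axis) in each library, gmASTRs as grey circles and wmASTRs as blue squares, with replicate numbers and lines of ratio 0.2 and 0.3. Right, the S to G2/M ratio of each library with mean ± SD; gmASTR replicate 5 (0.335) and wmASTR replicate 6 (0.374) are the highest of their groups.

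The spread between cultures also differed between the phases. Among the abundant members, those with a mean of at least 50 CPM, the median coefficient of variation was 19.0% over the 6 gmASTR libraries for the 5 S-phase members and 31.5% for the 14 G2/M members. Without replicate 5, these values were 11.3% and 19.6%, and in wmASTRs they were 21.1% and 25.9%. The G2/M members thus varied more than the S-phase members in each of these sets, without a test, since members of 1 library are not independent. Single cultures often held the extremes of their group. Replicate 6 was the highest gmASTR library in 22 of 36 G2/M members and in 5 of 10 S-phase members. In wmASTRs, replicate 6 was the lowest in 15 of 36 G2/M members and in 3 of 10 S-phase members, and replicate 4 was the lowest in 11 and 3.

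The culture that stood apart was gmASTR replicate 5, which was the lowest gmASTR library in 40 of the 46 members, 8 of S phase and 32 of G2/M. Racgap1 is counted among these, where replicates 4 and 5 were both at 0. Replicate 5 was singled out after the values were seen. With that library, all gmASTRs lay above all wmASTRs in 3 of 10 S-phase members (Mcm4, Rrm1 and Tk1) and 2 of 36 G2/M members (Cks2 and Smc2), beside 2.69% of all genes of the filtered table and 13.3% of those the name list held. Without it, this held for 7 of 10 S-phase and 24 of 36 G2/M members, beside 6.55% of all genes and 29.5% of those the name list held, and leaving out wmASTR replicate 2 instead raised the G2/M count to 5. Without replicate 5, 38 of 46 members had an FDR under 0.05, 9 of S phase and 29 of G2/M, among them all 31 called with it, beside 7.42% of all genes and 39.0% of those the name list held. The median log2 fold change of the G2/M members was then 1.09 in place of 1.01, and that of the S-phase members 0.87 in place of 0.81.

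Replicate 5 was lowered by a different amount in the 2 phases. Relative to the median of the other 5 gmASTR libraries, the median member was at 0.599 in S phase and at 0.436 in G2/M. The abundant members alone gave 0.701 for 5 S-phase members, from 0.576 to 0.811, and 0.466 for 14 G2/M members, from 0.322 to 0.781. By role, the median was 0.786 for clamp and nucleotide supply and 0.527 for the MCM helicase, and it was lowest for protein destruction at mitotic exit (0.301) and the spindle checkpoint (0.330). The small groups were not uniform. The checkpoint held Bub1b at 0.205, Ttk at 0.330 and Bub1 at 1.03, and the clamp and nucleotide supply held Tk1 at 0.474, Pcna at 0.762, Rrm1 at 0.811 and Rrm2, near the floor, at 1.09, whereas the 4 destruction genes all lay between 0.183 and 0.375. Relative to the wmASTR median, replicate 5 was at 1.22 in the median S-phase member and at 1.03 in the median G2/M member, where the other gmASTR libraries were at 1.94 and 2.39. Replicate 5 lay above all wmASTR libraries in 5 of 10 S-phase members (Mcm4, Pcna, Rrm1, Rrm2 and Tk1, Mcm4 at 81.8 against at most 81.7 CPM and Pcna at 69.2 against at most 69.1 CPM) and in 3 of 36 G2/M members (Cks2, Bub1 and Smc2). Its G2/M members were thus mostly within the wmASTR range, while the 4 members of the clamp and nucleotide supply group lay above it. This was seen in a single culture and was not tested.

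**Figure D4:**
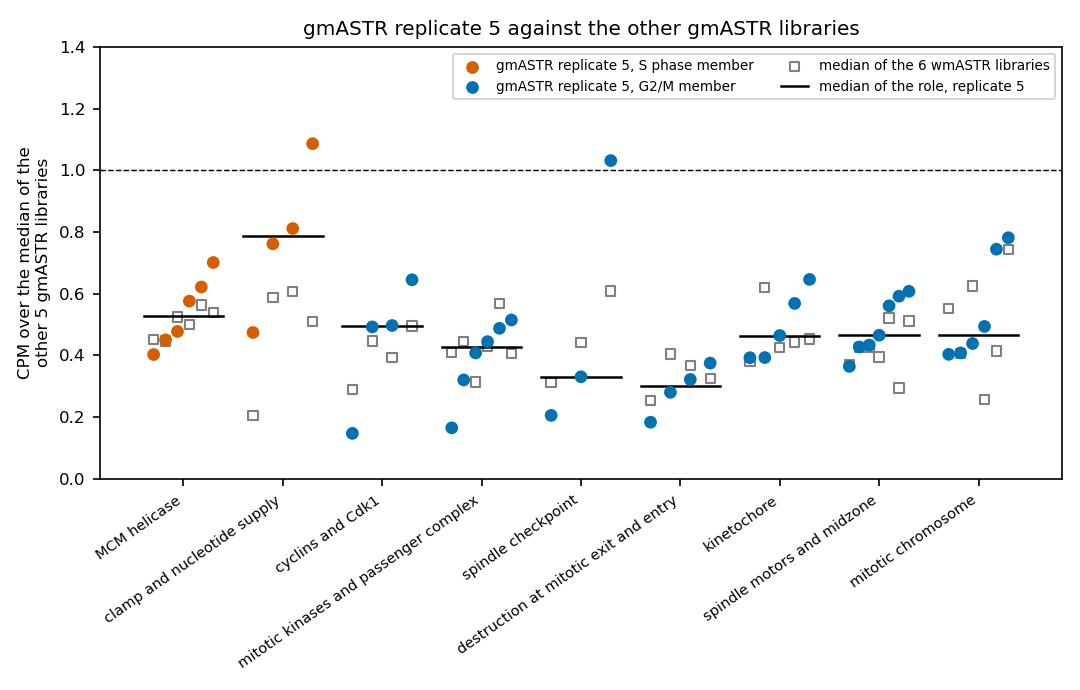
CPM of each member in gmASTR replicate 5 over the median of the other 5 gmASTR libraries (y axis, filled circles, orange for S phase and blue for G2/M) by role, with role medians as black lines. Grey squares give the wmASTR median on the same scale. The dashed line at 1 marks no difference; the role medians lie between 0.301 and 0.786, highest for clamp and nucleotide supply. Racgap1 is not drawn.

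Replicate 5 differed from the other gmASTR libraries in other transcripts too. On the first principal component of all genes, which held 26.9% of the variance, it was at -3.04, between the other gmASTR libraries (15.1 to 51.7) and the wmASTR libraries (-44.0 to -14.1). The other gmASTR libraries were spread along that component as well, with replicates 1 and 2 at 15.1 and 24.7 and replicates 3, 4 and 6 between 47.5 and 51.7. Replicate 5 was thus the end of a spread group there. The summed CPM of the 5 leptomeningeal fibroblast markers was 483 in replicate 5, where the other gmASTR libraries ranged from 1155 to 4558 and the wmASTR libraries from 263 to 524. The markers of that list did not fall together. Cldn11, at 112 CPM against 693 to 3796 CPM in the other gmASTR libraries, and Foxc1, at 276 against 394 to 629 CPM, were low in it, and Igf2 was the lowest of the group at 48.9 CPM, next to 51.9 CPM. Aldh1a2, at 47.4 CPM, was instead the highest of all 12 libraries, with 3.34 to 29.9 CPM in the other gmASTR libraries and at most 21.1 CPM in wmASTRs. The 3 oligodendrocyte markers paired were at 0 in replicate 5, the lowest gmASTR library, where the others summed to 0.387 to 4.25 CPM and the wmASTR libraries to 9.15 to 53.3 CPM. Its microglial sum of 27.7 CPM was within the range of the other gmASTR libraries, and its depth of 5258122 counts was within that of the other libraries. The part of these transcripts in the low G2/M values of this library was not tested.

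Other cell cycle genes were taken from 6 lists with 116 genes that are no members, of which 63 could be paired with an identifier by the same name list, so that their direction was fixed in the same way. Of these, 16 (25.4%) passed the test, all higher in gmASTRs, beside 31.6% of the genes of the filtered table that the name list held, so that the share was not above that of the list. The G1 and entry genes gave few pairs. Ccnd1, cyclin D1, which drives the passage from G1, was at 97.8, 355 and 617 CPM in gmASTRs and 44.9, 119.8 and 264 CPM in wmASTRs (log2 fold change 1.31 ± 0.36 SE, FDR 0.0210), with replicate 5 the lowest gmASTR library. Cdk2 (FDR 0.130) and Ccne1, cyclin E1 (FDR 0.153), did not pass. Both paired inhibitors of cyclin-dependent kinases passed as well. Cdkn2c, p18, was at 18.4, 29.0 and 33.4 CPM in gmASTRs and 8.62, 10.8 and 15.4 CPM in wmASTRs without overlap (1.14 ± 0.23 SE, FDR 0.00264), and Cdkn1c, p57, was at 7.35, 22.5 and 40.4 and 1.50, 6.24 and 17.8 CPM (1.56 ± 0.46 SE, FDR 0.0317).

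Of the 6 paired regulators of the Rb-E2F, MuvB and FoxM1 group, 1 passed, E2f2, an activating E2F, at 2.27, 8.05 and 11.5 CPM in gmASTRs and 0, 1.58 and 3.82 CPM in wmASTRs (2.30 ± 0.71 SE, FDR 0.0456, tested in the larger table, where 3.46% of 15478 genes were called higher in gmASTRs). Mybl2, B-Myb, was at 7.04, 34.6 and 44.1 and 10.8, 23.1 and 27.7 CPM and did not pass (0.46 ± 0.32 SE, FDR 0.40), and replicate 5 was the lowest of all 12 libraries. None of the 8 paired genes of origin licensing and firing passed, the nearest being Gins1 (1.17 ± 0.41 SE, FDR 0.0695) and Mcm10 (0.70 ± 0.25 SE, FDR 0.0788). The origin licensing factor Cdt1 (FDR 0.277) and its inhibitor geminin, Gmnn (FDR 0.340), were among those that did not pass.

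At the replication fork, 3 of 18 paired genes passed. Rfc5, a subunit of the loader of the Pcna clamp, was at 53.6, 69.0 and 83.4 CPM in gmASTRs and 22.9, 33.0 and 43.0 CPM in wmASTRs without overlap (1.00 ± 0.16 SE, FDR 0.000635). Dut, which removes dUTP from the nucleotide pool (0.85 ± 0.21 SE, FDR 0.00962), and Uhrf1, which guides maintenance of DNA methylation (0.86 ± 0.22 SE, FDR 0.0119), passed too. Lig1, the DNA ligase of the lagging strand (FDR 0.0571), and the polymerase subunit Pola1 (FDR 0.0835) did not. Of 26 other paired mitosis genes, 9 passed. Melk, a kinase of G2/M (1.22 ± 0.23 SE, FDR 0.00146), was at 43.4, 61.9 and 80.2 CPM in gmASTRs and 15.2, 24.4 and 38.9 CPM in wmASTRs without overlap. The kinesins Kif22 (1.05 ± 0.24 SE, FDR 0.00652), Kif15 (1.17 ± 0.27 SE, FDR 0.00839), Kif18a (1.39 ± 0.39 SE, FDR 0.0237) and Kif18b (0.84 ± 0.23 SE, FDR 0.0182) rose. So did Incenp, the scaffold of the passenger complex (0.72 ± 0.19 SE, FDR 0.0182), and Spc24, the partner of Spc25 (1.03 ± 0.30 SE, FDR 0.0321). The spindle proteins Dlgap5 (0.82 ± 0.26 SE, FDR 0.0483) and Troap (1.77 ± 0.54 SE, FDR 0.0390) made up the rest. The number of these 63 genes that passed moved with single cultures, with 26 without gmASTR replicate 5, 9 without gmASTR replicate 6 and 10 without wmASTR replicate 4. Of the 16 called, 8 lost the call without at least 1 library, namely Ccnd1, Cdkn1c, E2f2, Spc24, Kif18a, Kif18b, Dlgap5 and Troap, the last 2 and E2f2 without 9 or 10 of the 12.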

How the data were processed

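The authors made 3′ libraries (QuantSeq), and used HISAT (0.1.5) for alignment, SAMtools (1.2) for sorting and HTSeq (0.6.1p1) for counts per Ensembl gene, per the labels and the methods. The submitters' processing notes name build GRCm38, although the gene identifiers are those of rat. The values are raw read counts, which the authors deposited for all 17941 genes and again for the 9394 genes that passed their low-count filter. Reads end near the 3′ end of a transcript, so counts were not divided by length and levels are not compared between genes.

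CPM, fold changes and tests were computed here from the counts in R (4.3.3) by the quasi-likelihood test of edgeR (4.0.16) on TMM-normalized libraries, with brain region as sole factor and the prior count at 0.125, and adjusted over all genes after Benjamini and Hochberg, at an FDR of 0.05. SE is the log2 fold change divided by the square root of F. Racgap1 and 8 other cell cycle genes were tested in the larger table (15478 genes with a count). CPM of members are relative to the total of the filtered table, and marker sums to that of the larger table. limma (3.58.1) and DESeq2 (1.42.0) served as alternatives, and figures were drawn with Python (3.11.15) and matplotlib (3.10.9). The edgeR procedure was tested on simulated data. p-values measure the spread between these culture preparations. Names came from a part of the study's own gene lists (46 of 50 members), 54 further names were matched through their values in the 12 libraries, and no sequence table or reference name table added a pair. Genes were given with values in every library if they were Mki67, Top2a or Pcna, or had the highest mean CPM or the largest absolute log2 fold change in their role group. Of the other cell cycle lists, those called and otherwise the 3 with the highest mean CPM were named, and genes named beyond that were chosen after their values were seen. The members and lists were chosen with earlier results of these data known.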

Additional observations from a re-analysis of the deposited data

Results flagged for a closer look

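A single value among the members named and the phase sums stood far from the rest of its group, Kif11 in gmASTR replicate 5. It was at 13.5 CPM, where the other 5 gmASTR libraries ranged from 32.5 to 41.0 CPM, and the gap to the nearest took 0.688 of the whole range of the group, above Dixon's 95% critical value for 6 libraries. Such a gap was looked for in 48 sets of 6 libraries, and chance gives about 1 in 20. The cause was not tested.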

How the results depend on the processing

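The counts of members called were within 1.5 times the reported ones (8 of S phase and 23 of G2/M) under RLE size factors, no normalization, the likelihood ratio test, DESeq2, limma-voom and both wider gene tables. At an FDR of 0.01 they were 5 and 15, and 6 in place of 16 for the other cell cycle genes. Leaving out each library in turn gave 6 to 9 S-phase members, 20 to 29 G2/M members and 9 to 26 of the other cell cycle genes. The members without overlap of the groups, an alternative chosen after seeing the data, ranged from 3 to 7 of S phase and from 2 to 24 of G2/M, the highest of both without gmASTR replicate 5. The difference of gmASTRs and wmASTRs in the log2 S to G2/M ratio (-0.18) ranged from -0.26 to -0.11 without single libraries (gmASTR replicate 5 and wmASTR replicate 6) and was -0.07 with the mean log2(CPM + 1). With mean z-scores the difference of the phases was 0.10, of the opposite sign, but each gene is there divided by its own spread, so that this value is not a measure of the log2 ratio. All 21 named members kept their direction in 420 values under alternatives, 3 called ones lost the call at least once (Pcna, Mcm5 and Ncaph), and 5 uncalled ones gained it at least once (Ccna2, Bub1b, Ttk, Cdca3 and Cenpf). Of all 31 members called, 6 lost the call without at least 1 library, the others being Kif23 (8 libraries), Cenpe and Ect2 (1 library each, gmASTR replicate 3 and gmASTR replicate 2). Members paired by the name list alone are the members reported, so that this alternative gave no new value.

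With the replicate number as a block, 7 S-phase members, 22 G2/M members and 11 of the other cell cycle genes were called, Pcna (FDR 0.0811) and Cdc20 (FDR 0.0511) were the members that lost the call, and the difference in the ratio is -0.18 by construction, since all 6 pairs are complete. The labels say that both regions came from the same animals, but not that the number marks the animal. Deviations from the group means correlated at -0.0188 to 0.00492 between libraries of the same number. Libraries of different numbers were not compared, so whether the number marks an animal was not tested.

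Of the members below 20 CPM, 2 of 12 passed, and the parts of depth and of the spread between cultures in this were not tested. Floors cover counting error only, whereas SE and SD hold the spread between cultures as well. The names held set the direction of all members, and genes without a name could not be followed.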

Other observations

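Outside the cell cycle lists, the 5 named genes whose log2(CPM + 1) followed the mean z-score of all 45 members of the filtered table most closely over the 12 libraries were Hnrnph1 (Pearson r = 0.980), Sema3d (0.979), Rab34 (0.971), Sub1 (0.965) and Mfap5 (0.965), out of 1443 named genes. The libraries share depth and region, so these values describe the order of the cultures and carry no p. Hnrnph1, a splicing factor, was at 238, 385 and 451 CPM in gmASTRs and at 178, 223 and 288 CPM in wmASTRs (lowest, median and highest). Mfap5, a protein of elastic microfibrils, was at 144, 826 and 1067 CPM in gmASTRs and at 36.7, 46.4 and 65.0 CPM in wmASTRs. In all 5 genes, gmASTR replicate 5 was the lowest gmASTR library, at 47.2 CPM for the secreted guidance protein Sema3d, for example, where the gmASTR median was 224 and the wmASTR libraries ranged from 10.3 to 53.3 CPM. That place follows from the choice of the genes, since the mean z-score of the members was itself lowest among gmASTRs in that library. Names were held mostly for genes higher in gmASTRs, which limits the candidates in the same way.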
